A study of Mus musculus with 8 samples.

Results

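Small structures are short pieces of DNA, of about 40 to 80 bp, that survive when the chromatin of condensing spermatids is digested with MNase (micrococcal nuclease), which destroys DNA that no protein covers. The lists of small-structure positions of H2A.L.2-less and WT mice were compared on chromosomes 1 to 19. The members are all autosomal positions of both lists, 4047666 from H2A.L.2-less cells and 5291731 from WT cells, together 9339397 of the 36905351 autosomal positions of the 8 libraries in the series. Each genotype had 1 small-structure library, made from mouse testis cell fractions enriched in condensing spermatids. The labels name the genotypes only as H2A.L.2-less and WT. They give neither the allele nor the strain, age or number of animals, and do not say whether animals were pooled. The small fragments had been separated from nucleosome-sized fragments of about 130 to 170 bp by electrophoresis before sequencing. The other libraries cover nucleosomes of spermatocytes, round spermatids and condensing spermatids of the same genotypes.

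In condensing spermatids, histones are removed from the DNA and replaced first by transition proteins and then by protamines, which pack the sperm genome. H2A.L.2 is a short, testis-specific variant of histone H2A that appears late in this process, at the time of the transition proteins. Nucleosomes that hold it wrap less DNA than ordinary ones, and it has been studied for its part in the loading of transition proteins. Fragments shorter than a nucleosome are therefore the material in which partly unwrapped or partly dismantled nucleosomes would be found, but the assay does not say which protein protected a fragment.

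With 1 library per genotype, no difference between genotypes has a replicate check, no test across libraries was made, and a difference of genotype cannot be told apart from a difference of library. Intervals are 95% Wilson intervals and cover counting error only. An SD over the 19 autosomes shows how much a value varied from chromosome to chromosome and is no measure of error between animals. No sequence is read at the positions, because no genome of the mm9 build was used here, and the comparison rests on where summits lie, how high they are in their own list, how widely fragments scatter around them, and how they are spaced.

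The H2A.L.2-less list held 0.765 times as many positions as the WT list, from 0.731 on chromosome 3 to 0.795 on chromosome 11. The summit value, the height of coverage at a position, has no scale common to the libraries. Its median was 160 in H2A.L.2-less and 492 in WT cells, and its 1st percentile was 96 in H2A.L.2-less and 272 in WT cells. Relative to its own median, the H2A.L.2-less list reached further up, with a 90th percentile of 1.95 times the median against 1.80 times in WT, and a 99th percentile of 3.15 times against 2.58 times. H2A.L.2-less summit values were also coarser: 11.5% of positions shared the value 96, while the most common WT value, 272, was held by 2.64%. Depth of the single libraries is unknown. For a second comparison at equal list length, the WT list was reduced to its 4047666 highest positions, which removed 1244065 positions and left a lowest summit value of 356.

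Most small structures of H2A.L.2-less cells stood where WT cells had one. A summit counts as matched if the list of the other genotype contains one at most 40 bp away. Of the H2A.L.2-less summits, 3064634 were matched, or 75.7% (95% interval 75.7% to 75.8%, SD over autosomes 0.945 points). Of the WT summits 57.9% were matched (SD 2.12 points). When one list was displaced by 5 kb, which keeps the local density but breaks the register, 29.3% of H2A.L.2-less and 22.4% of WT summits still found a neighbour within reach. Both matched shares were 2.58 times this background. Summits of a list are at least 100 bp apart, so no summit has more than 1 partner within 40 bp. The shares of both genotypes therefore count the same 3064634 pairs over lists of unlike length, and their like ratios follow from this. At equal list length, where the shares of both lists must be the same, 66.9% was matched, 2.74 times the background for H2A.L.2-less summits. Among whole autosomes the share ran from 73.7% on chromosome 3 to 77.4% on chromosome 11 for H2A.L.2-less summits, and from 53.9% to 61.5% on the same chromosomes for WT summits.

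The 983032 H2A.L.2-less summits without a WT partner were mostly close to a WT summit all the same, with a median distance of 90 bp and quartiles of 60 and 150 bp. The 2227097 unmatched WT summits were further from the H2A.L.2-less list, with a median of 160 bp and quartiles of 90 and 330 bp. The order turned at equal list length, where the median was 130 bp for H2A.L.2-less and 120 bp for WT summits. Only 0.912% of H2A.L.2-less summits and 2.53% of WT summits had nothing in the other list within 1000 bp, and at equal list length these shares were 3.42% for H2A.L.2-less and 0.953% for WT summits. Which genotype's unmatched summits lay further from the other list thus changed with the number of WT positions kept.

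Around WT summits, H2A.L.2-less summits were 5.19 times as dense at the same coordinate as at 800 to 1000 bp away. The density fell to 2.22 at 20 bp, 0.776 at 40 bp and 0.469 at 80 bp, and rose again to 1.43 at 140 bp. A distance of 140 bp was also the densest within each library, at 1.54 times the same background in H2A.L.2-less and 1.87 times in WT cells. Neither list holds summits closer than 100 bp to each other, and each position is 140 bp wide, and the part of these limits in the trough and the peak was not tested.

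Where summits were paired, their registers were close. In 23.4% of pairs the summit had the same coordinate in both genotypes, in 60.7% it was at most 10 bp away, and in 81.4% at most 20 bp, on lists whose coordinates fall almost entirely on a 10 bp grid. The share within 10 bp was 69.4% for pairs in the highest decile of the H2A.L.2-less list, against 52.2% for pairs in the lowest decile. The offsets were not symmetric. The WT summit had the larger coordinate in 40.9% of pairs and the smaller in 35.7%, a mean offset of 1.04 bp. Condensing nucleosomes of the same genotypes showed no such shift, with 42.7% and 42.8% and a mean of 0.00144 bp, and held fewer close pairs, with 42.2% within 10 bp. Nucleosome matching was 1.85 times background and small-structure matching 2.58 times, and the part of this in the contrast was not tested.

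How well a small structure was matched depended on its height. In the highest decile of the H2A.L.2-less list, with values of 312 and more, 84.7% of summits were matched, and in the lowest decile 58.3%. In the WT list the highest and lowest deciles gave 84.2% and 23.4%. At equal list length the lowest deciles came together, with 39.1% of H2A.L.2-less and 41.6% of WT summits matched, while the highest were at 84.7% in each. With full lists the difference between the lists was thus largest in the lowest decile and narrowed with height. In decile 5, 78.0% of H2A.L.2-less and 57.1% of WT summits were matched, and in decile 8, 83.4% and 77.3%. The difference moved with list length. Even so, 61844 of the highest H2A.L.2-less summits and 83531 of the highest WT summits had no partner, 15.3% of the H2A.L.2-less and 15.8% of the WT decile. Background also rose with height: it was 37.7% in the highest and 22.9% in the lowest H2A.L.2-less decile. The ratio of matching to background was greatest in the middle of the lists, at 2.80 in decile 5 of the H2A.L.2-less list and 2.99 in decile 7 of the WT list. A higher background lowers the largest ratio that is possible, so these ratios do not rank the deciles.

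**Figure D1:**
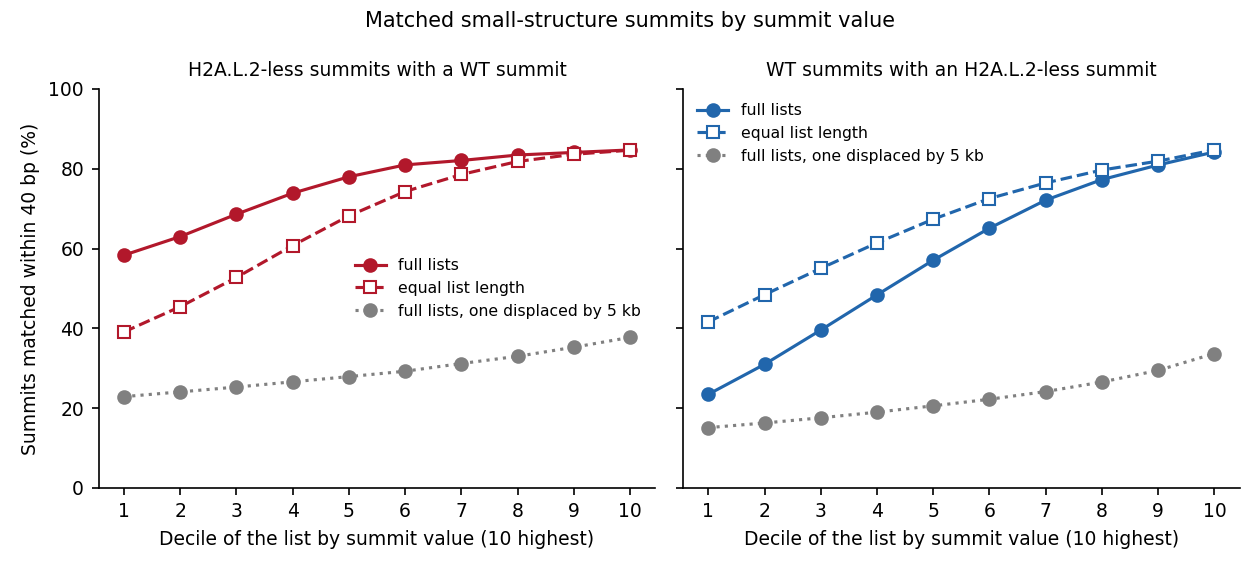
Share of small-structure summits matched within 40 bp (y axis, percent) by decile of the list by summit value (x axis), for H2A.L.2-less summits (left) and WT summits (right). Filled points are full lists, open squares equal list length, and grey points the background after displacing one list by 5 kb; the highest deciles reach 84.7% in H2A.L.2-less and 84.2% in WT, while the lowest deciles of the full lists stand at 58.3% in H2A.L.2-less and 23.4% in WT.

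The heights themselves agreed between the libraries. Over the 3064634 pairs, Spearman's rho between H2A.L.2-less and WT summit values was 0.67, from 0.61 to 0.70 among autosomes, and Pearson's r of the within-list percentiles was 0.65. Positions are not independent, and both libraries share the genome's mappability, so these are descriptions without a p-value. Of the paired summits in the highest H2A.L.2-less decile, 63.3% were also in the highest WT decile and 22.4% in the next one. Of those in the lowest H2A.L.2-less decile, 12.8% were in the lowest WT decile and 0.398% in the highest. The median difference between the percentiles of a pair was 14.2, and 4.86% of pairs differed by more than 50. Ties limit these values at the low end, where a decile of the H2A.L.2-less list spans only the values up to 96.

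**Figure D2:**
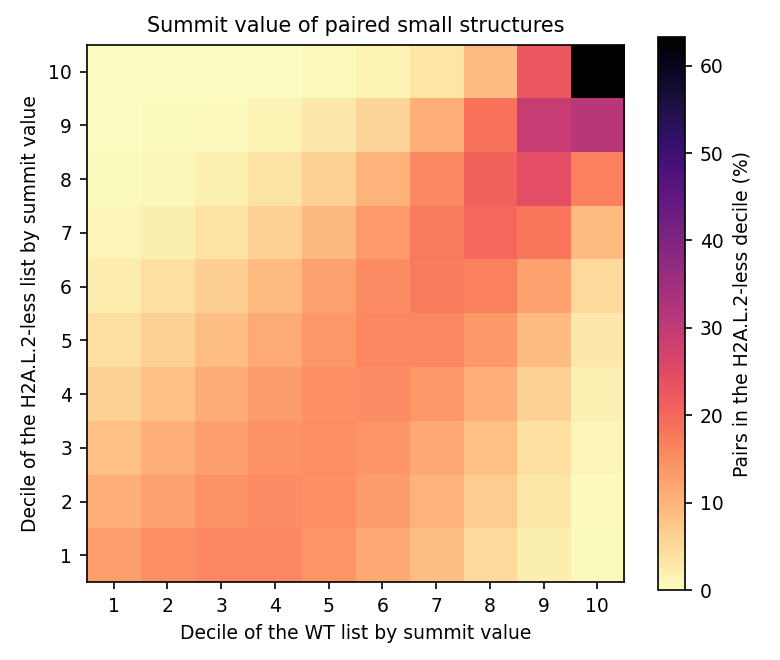
Paired small structures by decile of the H2A.L.2-less list (y axis) and of the WT list (x axis) by summit value, 10 being the highest; colour gives the share of pairs of each H2A.L.2-less decile in percent. The darkest square, 63.3%, joins the highest deciles of both lists, and the lowest H2A.L.2-less decile is spread over the lower WT deciles, with 12.8% in the lowest.

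The nucleosomes of the same condensing spermatids matched much less between genotypes. Of H2A.L.2-less condensing nucleosome summits 30.1% had a WT summit within 40 bp (SD over autosomes 1.15 points), 1.85 times background. With all 4 condensing lists cut to 3748879 positions, the share was 66.3% (SD 2.38 points) for small structures and 30.2% (SD 1.16 points) for nucleosomes, or 2.81 and 1.85 times background. Heights of paired nucleosomes had a rho of 0.23, from 0.17 to 0.33 among autosomes, which does not overlap the range of small structures. Displaced lists still matched 16.3% of H2A.L.2-less nucleosome summits and 29.3% of small-structure summits, so some pairs of each class may not be the same site. The part of such pairs in the rho values was not tested. In the highest decile of the H2A.L.2-less nucleosome list 48.6% were matched and in the lowest 22.8%. The difference between the fragment classes was larger than the spread over autosomes, but each class had 1 library per genotype, and no test was made.

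Small structures of H2A.L.2-less cells were sharper. The fuzziness score, the spread of fragments around a position as the authors' caller gives it, had a median of 50.2 ± 0.610 in H2A.L.2-less and 52.5 ± 0.452 in WT cells (SD over 19 autosomes), and 52.7 in WT at equal list length. The median was lower in H2A.L.2-less cells on 19 of 19 autosomes, by 2.05 to 2.62. The lower tail carried most of the difference: the 10th percentile was 39.4 in H2A.L.2-less and 43.1 in WT cells, and the 90th was 59.2 in H2A.L.2-less and 59.9 in WT cells. Scores under 40 were found at 452133 H2A.L.2-less positions, 11.2% of the list, and at 257162 WT positions, 4.86%. Such positions were more frequent among low summits. They made up 17.4% of the lowest and 4.72% of the highest decile in H2A.L.2-less cells, and 7.46% and 1.72% in WT. The limit of 40 was chosen after the data were seen.

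The difference was present at the same sites. Over pairs, the H2A.L.2-less score was lower by a median of -2.31 (SD over autosomes 0.124, quartiles -5.88 and 1.12), and it was the lower of the pair in 67.5%. The scores of a pair went together across sites, with a rho of 0.67. The difference grew with height, from -1.03 for pairs in the lowest H2A.L.2-less decile to -3.13 in the highest, where the medians were 50.6 in H2A.L.2-less and 54.0 in WT cells. Paired condensing nucleosomes differed by a median of 0.0604 (SD over autosomes 0.0260), with medians of 54.3 in H2A.L.2-less and 54.2 in WT cells, and a rho of 0.26. Of H2A.L.2-less nucleosome summits 30.1% were matched, and 16.3% still were after displacement, so many nucleosome pairs may not be the same site. Median summit values of the small-structure lists were 160 in H2A.L.2-less and 492 in WT cells, and the part of coverage in the fuzziness difference was not tested.

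By median score, summits present in both genotypes were sharper than those in 1 list. In H2A.L.2-less cells the median was 49.6 for matched and 52.3 for unmatched summits, and in WT cells it was 52.2 and 53.1. The gap opened with height. In the lowest decile the medians were 49.2 for matched and 49.3 for unmatched H2A.L.2-less summits, and in the highest 50.6 and 54.4. In WT the lowest decile had 52.0 and 51.8, and the highest 52.8 and 55.7. From decile 8 upward, unmatched summits had medians of at least 54.2 in H2A.L.2-less and 55.1 in WT cells. Scores under 40 made up 11.6% of matched and 9.72% of unmatched H2A.L.2-less summits. In WT cells the order was the other way, with 4.36% of matched and 5.55% of unmatched summits. Positions with scores under 40 were matched in 78.9% of cases in H2A.L.2-less cells, 3.51 times background, against 2.50 times for the others. In WT cells 52.0% of them and 58.2% of the others were matched, 3.30 times background against 2.55 times. Background was lower at positions under 40, at 22.5% against 30.2% in H2A.L.2-less and 15.7% against 22.8% in WT cells.

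**Figure D3:**
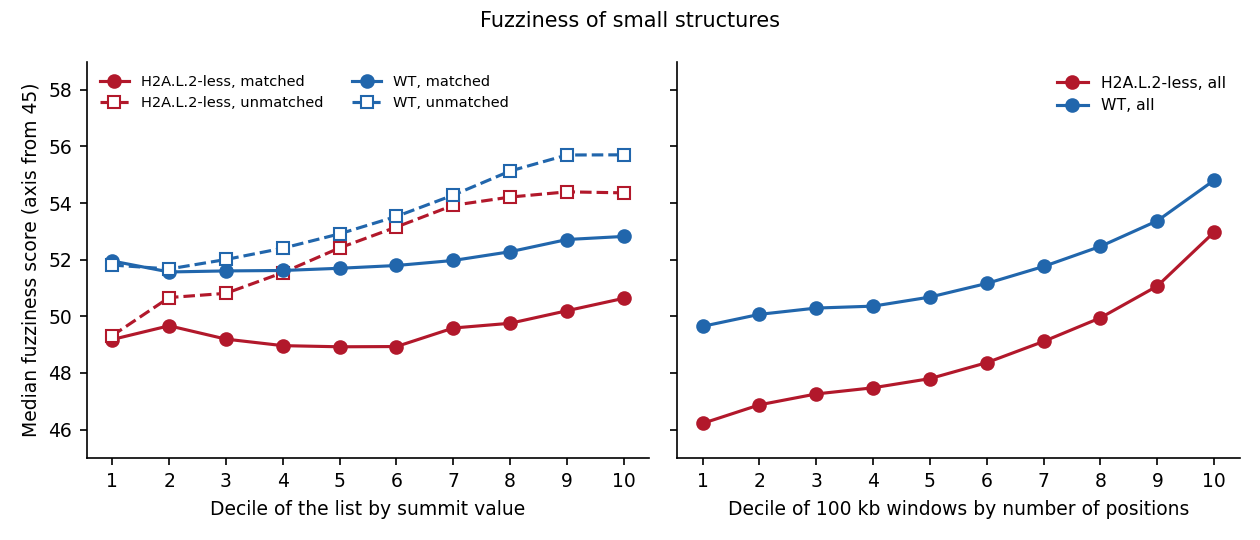
Median fuzziness score of small structures (y axis, from 45) by decile of the list by summit value for matched and unmatched summits (left), and by decile of 100 kb windows by number of positions (right). H2A.L.2-less medians (red) lie below WT medians (blue) for matched summits in each decile and in each decile of windows, and unmatched summits of the highest decile reach 54.4 in H2A.L.2-less and 55.7 in WT.

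Neighbouring summits lay somewhat further apart in the H2A.L.2-less list, which held fewer positions. Neighbouring summits up to 1000 bp apart had a median distance of 230 bp in H2A.L.2-less and 210 bp in WT cells, and the WT median was also 210 bp at equal list length. The median was longer in H2A.L.2-less cells on 19 of 19 autosomes with full lists and on 19 of 19 at equal length. In 7777 windows of 100 kb the equal-length lists held numbers within 5% of each other. There the median was 220 bp in H2A.L.2-less and 210 bp in WT cells, which is 1 step of the 10 bp grid. The mean was 286 bp in H2A.L.2-less and 276 bp in WT cells. These windows still held fewer H2A.L.2-less than WT positions, 1793829 against 1825253. The equal-length cut also removed more WT positions from sparse windows than from dense ones. The part of list length in the spacing was not tested. Distances under 200 bp made up 40.1% of neighbouring pairs in H2A.L.2-less and 44.9% in WT cells. The most frequent distance was 140 bp in each list, with 4.69% of pairs in H2A.L.2-less and 6.70% in WT cells.

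The WT distances alternated in steps of 20 bp and the H2A.L.2-less distances barely did. In WT cells 5.95% of neighbours were 120 bp apart, 4.29% were 130 bp apart, 6.70% were 140 bp apart and 4.26% were 150 bp apart. In H2A.L.2-less cells the same distances held 4.39%, 4.51%, 4.69% and 4.08% of neighbours. Distances of 120, 140 and so on to 300 bp were 1.01 times as frequent as those of 110, 130 and so on to 290 bp in H2A.L.2-less cells, and 1.23 times as frequent in WT cells. Among autosomes the ratio ran from 0.991 to 1.02 in H2A.L.2-less and from 1.15 to 1.30 in WT cells. The WT ratio was 1.35 at equal list length, and it was 1.01 in both condensing nucleosome lists. It rose with the height of the summits. Where both neighbours were in the highest quintile of their list it was 1.17 in H2A.L.2-less and 2.15 in WT cells, and where the lower neighbour was in the lowest quintile it was 0.973 in H2A.L.2-less and 0.978 in WT cells. This measure was chosen after the distances were seen. Summit values and the grid of the caller moved with it, and their part in it was not tested.

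**Figure D4:**
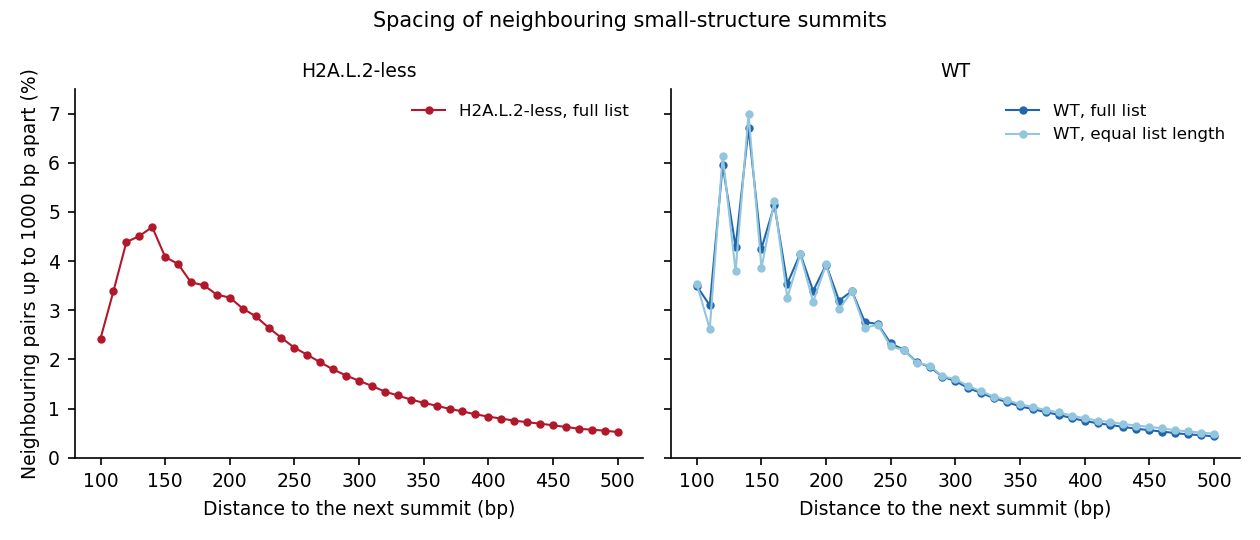
Distance between neighbouring small-structure summits (x axis, bp) against the share of neighbouring pairs up to 1000 bp apart (y axis, percent), for H2A.L.2-less cells (left) and WT cells (right, full list and equal list length). The H2A.L.2-less curve is nearly smooth with its peak of 4.69% at 140 bp, and the WT curve alternates, with 6.70% at 140 bp and 4.26% at 150 bp.

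Along the chromosomes the lists followed each other closely. Over 24017 windows of 100 kb the numbers of positions correlated with Pearson's r of 0.988 and Spearman's rho of 0.994, and r within single autosomes ran from 0.987 to 0.991. Windows are not replicates, and mappability is common to both libraries. The median window held 133 H2A.L.2-less and 194 WT positions. The lowest decile of windows held up to 44 H2A.L.2-less and 61 WT positions, and the highest decile from 356 H2A.L.2-less and 430 WT positions. Relative to its mean, the number varied more between windows in H2A.L.2-less cells, with a coefficient of variation of 0.714 against 0.628 in WT. At equal list length the order was reversed, with 0.714 in H2A.L.2-less and 0.787 in WT cells. Both statements held on 19 of 19 autosomes, so which genotype is the more evenly spread depends on the number of positions kept.

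The same turn was seen when windows were ranked by their number of positions. In the densest decile, H2A.L.2-less cells had 998399 positions against 1141035 in WT, a ratio of 0.875. In the sparsest decile they had 84556 against 116322, a ratio of 0.727, and the lowest ratio, 0.683, was in decile 5. As shares of the lists, the densest decile stood at a log2 ratio of 0.19 and the sparsest at -0.07, H2A.L.2-less over WT. At equal list length the densest decile was at -0.07 and the sparsest at 0.54. Cutting the WT list by height removed 50.1% of WT positions in the sparsest decile and 8.02% in the densest. WT summit values in the sparsest decile had a median of 0.724 times the library's, against 1.41 times in the densest. The H2A.L.2-less values were 0.750 and 1.30 times.

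The ratio of matching to background was highest in the sparsest windows. The matched share was lowest there, and a low background leaves more room for a high ratio. There 59.1% of H2A.L.2-less summits were matched against a background of 5.09%, a ratio of 11.6, and 42.9% of WT summits against 3.68%, a ratio of 11.7. In the densest decile the shares were 78.8% of H2A.L.2-less and 69.0% of WT summits and the ratios 1.82 in each direction. Both directions count almost the same pairs, so their like ratios are not separate results. Fuzziness rose with density, from 46.2 in the sparsest to 53.0 in the densest decile in H2A.L.2-less cells and from 49.6 to 54.8 in WT. The difference between genotypes was largest in the sparsest decile, at -3.43, and smallest in the densest, at -1.83.

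**Figure D5:**
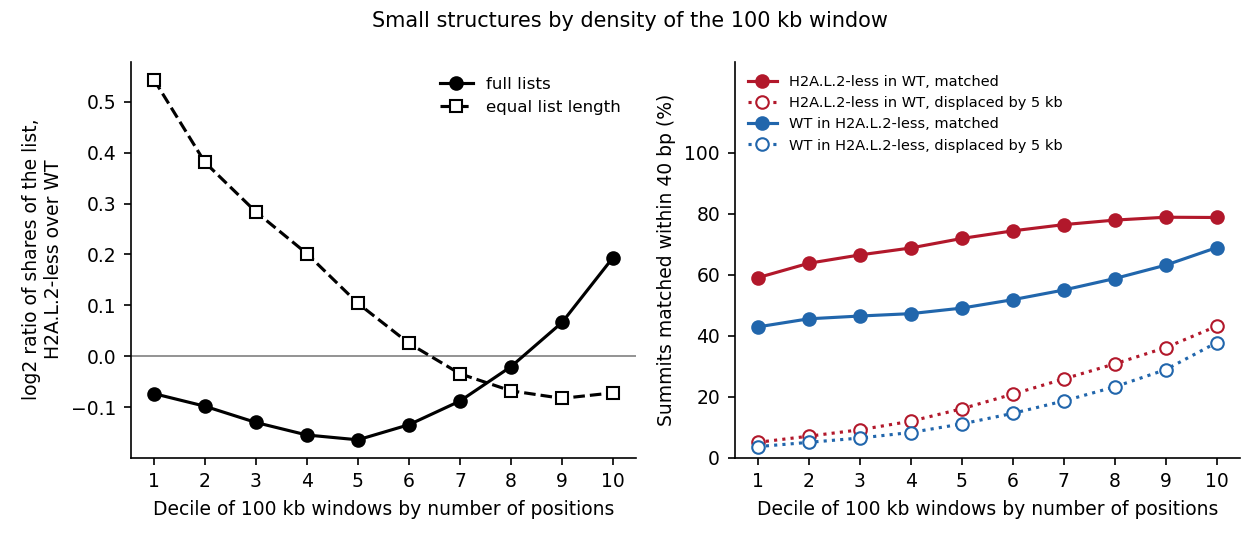
Small structures by decile of 100 kb windows by number of positions in both lists (x axis, 10 densest). Left, log2 ratio of the shares of the list (H2A.L.2-less over WT), which in the sparsest decile is -0.07 with full lists and 0.54 at equal list length; right, share of summits matched within 40 bp and the background after displacing one list by 5 kb, for H2A.L.2-less (red) and WT summits (blue).

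Single windows were compared where each full list held at least 100 positions, which leaves out most sparse windows, and the sparsest decile as a whole had a log2 ratio of 0.54 at equal list length. Among the 14417 of 24017 windows that met this minimum, 31 had a share of the H2A.L.2-less list above that of the equal-length WT list by a log2 ratio of 0.5 or more (0.215%), and 0 were below it by as much (0.0%). No test was made, so these counts have no p-value beside them. With full lists the numbers were 1 (0.00694%) and 5 (0.0347%). Only the WT list was cut by height, so a window could lose WT positions but no H2A.L.2-less positions. The direction of these counts thus depended on the number of WT positions kept. Of the 31 windows, 19 lay on chromosome 7 between 18000001 and 27000000 (mm9), among 81 windows compared there. This stretch was singled out after its values were seen. Its median log2 ratio was 0.06, against -0.04 for all windows compared. Over the 81 windows there were 19908 small structures in H2A.L.2-less and 22734 in WT cells, of which 18835 at equal list length. Condensing nucleosomes there numbered 20993 in H2A.L.2-less and 16189 in WT cells, and round spermatid nucleosomes 12779 in H2A.L.2-less and 16763 in WT cells.

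The 3 highest windows at equal list length were all in that stretch. The window from 22300001 to 22400000 held 121 H2A.L.2-less and 115 WT small structures, of which 50 remained at equal list length (log2 ratio 1.28). The window from 21300001 to 21400000 held 106 H2A.L.2-less and 108 WT small structures, with 45 WT positions at equal length (1.24), and that from 22800001 to 22900000 held 147 H2A.L.2-less and 136 WT small structures, with 65 WT positions (1.18). WT summits there were low, with medians of 0.683 to 0.711 times the library median, against 0.800 to 0.850 in H2A.L.2-less cells. The same windows held more nucleosomes of H2A.L.2-less condensing spermatids, with 159, 125 and 230 positions against 46, 39 and 81 in WT. Round spermatids had the other order, with 50, 30 and 72 H2A.L.2-less and 67, 63 and 97 WT positions. Of H2A.L.2-less summits 53.7%, 51.9% and 56.5% were matched there, against 75.7% over all autosomes, and of WT summits 56.5%, 50.9% and 61.0%, against 57.9% over all autosomes. Windows of like density, in deciles 4 and 5, had 68.8% and 71.9% of H2A.L.2-less and 47.3% and 49.1% of WT summits matched.

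At equal list length the 3 lowest windows departed less. With full lists their log2 ratios were -0.47, -0.38 and -0.16, in the order below, against 0.46, 0.36 and 0.50 in the 3 highest. On chromosome 2 from 10700001 to 10800000 there were 102 H2A.L.2-less and 185 WT small structures, with 132 at equal list length (log2 ratio -0.37). On chromosome 3 from 50600001 to 50700000 there were 143 H2A.L.2-less and 243 WT small structures, with 182 (-0.35). On chromosome 12 from 105000001 to 105100000 there were 249 H2A.L.2-less and 364 WT small structures, with 313 (-0.33). In this last window condensing nucleosomes also numbered fewer in H2A.L.2-less cells, 174 against 260 in WT, and round spermatid nucleosomes 227 against 341 in WT. In the other two the condensing nucleosomes were close, 173 in H2A.L.2-less and 171 in WT cells on chromosome 2, and 142 in H2A.L.2-less and 150 in WT cells on chromosome 3. Gene names could not be placed in these windows, because the annotation used here is of another genome build.

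The highest small structures with no counterpart within 1000 bp were named by rule, and such sites were not counted by height. The highest H2A.L.2-less summit with no WT summit within 1000 bp was on chromosome 3 from 124931271 to 124931411, with a value of 2512, or 15.7 times the median of its list, and a fuzziness of 27.7. The nearest WT summit was 1850 bp away. The next were on chromosome 2 from 125973581 to 125973721 and on chromosome 18 from 45215651 to 45215791, each with a value of 1152, 7.20 times the median, and fuzziness of 28.3 and 31.6. All 3 were sharp by the limit of 40. Condensing nucleosome summits of H2A.L.2-less cells lay 500, 100 and 390 bp from them, so none coincided with one within 40 bp.

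The WT counterparts were lower in their list. The highest WT summit with no H2A.L.2-less summit within 1000 bp was on chromosome 2 from 89086161 to 89086301, with a value of 1220, or 2.48 times the median, and a fuzziness of 38.9. It lay 20 bp from an H2A.L.2-less and 40 bp from a WT condensing nucleosome summit, and 30 bp from an H2A.L.2-less round spermatid summit of 3.69 times that list's median. The next, on chromosome 4 from 26482711 to 26482851 and on chromosome 17 from 68771561 to 68771701, each had a value of 920, 1.87 times the median. That on chromosome 17 lay 40 bp from a WT condensing and 30 bp from a WT round spermatid nucleosome summit. That on chromosome 4 lay 450 bp from a WT condensing and 4060 bp from a WT round spermatid nucleosome summit. Its distances to H2A.L.2-less nucleosome summits were 3810 bp in condensing and 40 bp in round spermatids.

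Nucleosome lists, which the matching did not use, were then set against matched and unmatched small structures. On condensing nucleosomes of the same genotype, matched H2A.L.2-less small structures lay within 40 bp of a nucleosome summit in 24.4% of cases, 1.33 times background, and unmatched ones in 19.5%, 1.14 times (SD of the ratio over autosomes 0.0317 and 0.0359). In WT cells matched ones gave 24.8%, 1.39 times, and unmatched ones 22.2%, 1.36 times (SD 0.0275 and 0.0439). The difference of these ratios, matched minus unmatched, was 0.192 in H2A.L.2-less (SD over autosomes 0.0165, above 0 on 19 of 19) and 0.0284 in WT cells (SD 0.0223, above 0 on 17 of 19). In WT it was 0.0562 at equal list length and 0.0746 with matching within 20 bp. Matched and unmatched summits also differed in height: 41.7% of the lowest and 15.3% of the highest H2A.L.2-less decile were unmatched. Neither these ratios nor those on round spermatid nucleosomes were compared at like height or window density.

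On round spermatid nucleosomes the outcome followed the nucleosome list more than the genotype of the small structures. On the H2A.L.2-less round spermatid list, H2A.L.2-less small structures were at 1.30 times background (24.5% of summits) and WT small structures at 1.39 times (26.2%). On the WT round spermatid list, H2A.L.2-less small structures were at 1.64 times background (41.0%) and WT small structures at 1.73 times (42.4%). The SD of these ratios over autosomes was 0.0355 and 0.0451 on the H2A.L.2-less list and 0.113 and 0.118 on the WT list. Moving from one nucleosome list to the other therefore changed the ratio by more than exchanging the small structures did. Against lists of the same genotype, matched H2A.L.2-less summits were at 1.32 and unmatched ones at 1.26 times background, and matched WT summits at 1.70 and unmatched ones at 1.77 times. The H2A.L.2-less difference of 0.0610 turned to -0.00395 at equal list length, where it was above 0 on 9 of 19 autosomes, and the WT difference of -0.0673 was -0.0357 at equal list length. Unmatched WT small structures stood above matched ones on the H2A.L.2-less round list too, at 1.47 against 1.33 times.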

How the data were processed

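MNase-protected DNA was sequenced in 3 runs a sample, joined once aligned, giving between 207000000 and 753000000 reads for each sample, per the series description. The submitters' processing notes name mm9 as the build and Bowtie2 2.2.9 and deepTools 2.2.4 as tools. Not given in the sources used here are the depth of single libraries and the caller's thresholds. The authors deposited, per the file headers, the limits and the summit of each position, its summit value, a coverage signal in which no normalization was seen, and its fuzziness score. All signal values were whole multiples of 4. Positions were 140 bp wide, and 97.0% of H2A.L.2-less and 98.8% of WT summits lay on a 10 bp grid.

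Samples were grouped by title. Autosomal positions of the 2 small-structure lists, the condensing nucleosome lists and the round spermatid lists were used. Summits within 40 bp were matched, and background was the share after displacing a list by 5000 bp. At equal list length the highest 4047666 WT positions were kept, with ties at the limit kept in a seeded random order (17591 of 23268 positions). Pairs are mutually nearest summits. Windows and sites were named by rule: the 3 highest and 3 lowest 100 kb windows by log2 ratio of shares at equal length, and the 3 highest summits per list with no counterpart within 1000 bp. The members, measures and rules were chosen with earlier results of these data known. Python 3.11.15, numpy 2.4.6, pandas 2.3.3, scipy 1.17.1 and matplotlib 3.10.9 were used, and the matching code was tested on simulated data. No test was made, since each group has 1 library.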

Additional observations from a re-analysis of the deposited data

Results flagged for a closer look

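The difference in fuzziness between the libraries was much larger in small structures than in nucleosomes of condensing spermatids. The median difference over pairs, H2A.L.2-less minus WT, was -2.31 in small structures. In nucleosomes it was 0.0604, with quartiles of -2.71 and 2.83, and the H2A.L.2-less score was the lower one in 49.4% of pairs. With all 4 lists cut to equal length, the list medians differed by -2.47 in small structures and by 0.0230 in nucleosomes. With full lists the median spacing, H2A.L.2-less minus WT, differed by 20 bp in small structures and by -10 bp, 1 step of the 10 bp grid, in nucleosomes. The opposite sign of the spacing difference was lost with all 4 lists cut to 3748879 positions. The median spacing was then 230 bp in H2A.L.2-less and 220 bp in WT small structures, and 310 bp in nucleosomes of each genotype. Each class had 1 library per genotype, and neither difference between the classes was tested.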

How the results depend on the processing

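No paired analysis was possible because each group had 1 library, and no library could be left out. Within 20 bp, 61.6% of H2A.L.2-less and 47.1% of WT summits were matched, 54.8% at equal list length, and 19.3% of H2A.L.2-less condensing nucleosomes. Within 73 bp the small-structure shares were 85.7%, 65.9% and 75.8%. Without the highest 0.1% of positions they were 75.66% and 57.87%, and with positions at or above each list's median 70.2% and 55.4%. Nucleosomes gave 30.2% at equal length. Spearman's correlation of paired heights was 0.641 at equal length and 0.537 at or above the median. The fuzziness difference was -2.47 at equal length and lay between -2.21 and -2.34 in the other settings. The spacing difference was 30 bp with neighbours at any distance and 10 bp in windows of like number. The window correlation was 0.997 at equal length, 0.994 at or above the median, 0.992 in 1 Mb and 0.985 in 50 kb windows. The difference of the coefficients of variation, 0.0858 with full lists, was reversed to -0.0730 at equal length, and was 0.0206 at or above the median and 0.0720 in 1 Mb windows. The count of windows above the limit was 31 of 14417 (0.215%) and became 1 with full lists, 75 of 2416 (3.10%) in 1 Mb and 3 of 16491 (0.0182%) in 50 kb windows, and that below it, 0, became 5 with full lists. The number of positions per window sets how many windows pass the minimum of 100. The matched-minus-unmatched difference of enrichment on condensing nucleosomes was 0.172 for H2A.L.2-less and 0.0562 for WT summits at equal length, and 0.0746 for WT within 20 bp. On round spermatid nucleosomes it was reversed from 0.0610 to -0.00395 for H2A.L.2-less summits at equal length, and was 0.171 on the WT list. For WT summits it was -0.0357 at equal length and -0.136 on the H2A.L.2-less list. The ratio of even to odd distances in WT was 1.35 at equal length. The causes were not tested. Windows of like number, the other genotype's round list and the even distances were chosen after seeing the data. A summit below a list's calling floor cannot be matched, and depth per library is unknown, so list length, depth and genotype cannot be told apart.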
